A study of Mus musculus with 25 samples.

Results

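Hepatocytes of mice fed for 6 weeks on a diet meant to cause non-alcoholic steatohepatitis (NASH) were compared with hepatocytes after 1 week on it, the longest and the shortest time on the diet in the series. The comparison uses 7 of the 25 libraries, 3 from week 6 and 4 from week 1, taken by the diet time in the labels. All 7 came from liver hepatocytes of C57BL/6 mice on the NASH diet, so the mice of both groups had eaten it and neither is a normal-diet control. The other libraries are 5 from mice on normal diet and 13 from weeks 2 to 5. What the diet contained, and the age and sex of the animals, are not stated in the labels. Per the labels, mice were anaesthetised with pentobarbital, livers were perfused with collagenase, and hepatocytes were pelleted at low speed and FACS sorted, with a gate that is not given. Polyadenylated RNA was sequenced from its 3' ends (QuantSeq FWD). Nothing in the labels says that the libraries of a group come from different mice. The p-values below therefore refer to the spread among these libraries, which may be technical.

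Steatohepatitis is the stage of fatty liver disease in which stored fat is joined by inflammation and by scar formation. Hepatocytes divide their work by position in the lobule: cells around the central vein, which receive Wnt signals from the endothelium there, make glutamine and oxidise drugs, while cells around the portal vein make urea and glucose. In male mice the pulses of growth hormone, acting through its receptor and STAT5, keep a set of hepatocyte genes high, the major urinary proteins (Mup) among them.

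The libraries of week 6 held between 6174357 and 7958216 counts and those of week 1 between 6365183 and 7098817. Mitochondrially encoded transcripts took 20.7 to 23.8% of the counts at week 6 and 19.9 to 22.5% at week 1. Levels are CPM, counts brought to a common library total with TMM composition factors. Albumin (Alb), the main product of hepatocytes, stood at 52100, 50000 and 51300 CPM at week 6 and at 45300, 43300, 53300 and 52500 CPM at week 1. Its level in all 7 libraries matches the hepatocyte label. Markers of other liver cells were also present in every library, and most were higher at week 6. The mean log2 CPM of 3 marker lists, those of Kupffer cells, sinusoidal endothelial cells and stellate cells, was 5.41 ± 0.17 (SD, n = 3) at week 6 and 3.84 ± 0.51 (SD, n = 4) at week 1. The libraries of the weeks did not overlap in this marker score (5.54, 5.22 and 5.46 against 4.26, 3.31, 4.29 and 3.51). In RNA from a bulk of cells, more cells of a type and more RNA per cell cannot be told apart. In week 1 replicates 3 and 4, transcripts of pancreatic enzymes were found (401 and 227 counts of chymotrypsinogen Ctrb1), against at most 3 counts of it in the other 5 libraries.

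Of 11869 genes tested with edgeR's quasi-likelihood test, 1956 (16.5%) passed a Benjamini-Hochberg adjusted p of 0.05. At week 6, 1363 of them (11.5% of the genes tested) were higher and 593 (5%) were lower. Among the genes that rose, 1117 (9.41% of those tested) rose at least 2-fold, and among those that fell 116 (0.977%) fell at least 2-fold. The libraries of the weeks did not overlap for 1270 of the genes that rose and 528 of those that fell, where 15.3% and 9.37% of all tested genes were separated in these directions. Over all tested genes the median log2 fold change was -0.05. Scaling by library size alone shifted log2 fold changes by 0.18 and gave 184 lower genes among 1975 calls, so that 90.7% of calls were higher in place of 69.7%. With the marker score added to the model as a term, 0 genes were called by edgeR, and 997 had an unadjusted p under 0.05. The score did not overlap between the weeks, so this model can hardly separate it from the week.

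**Figure D1:**
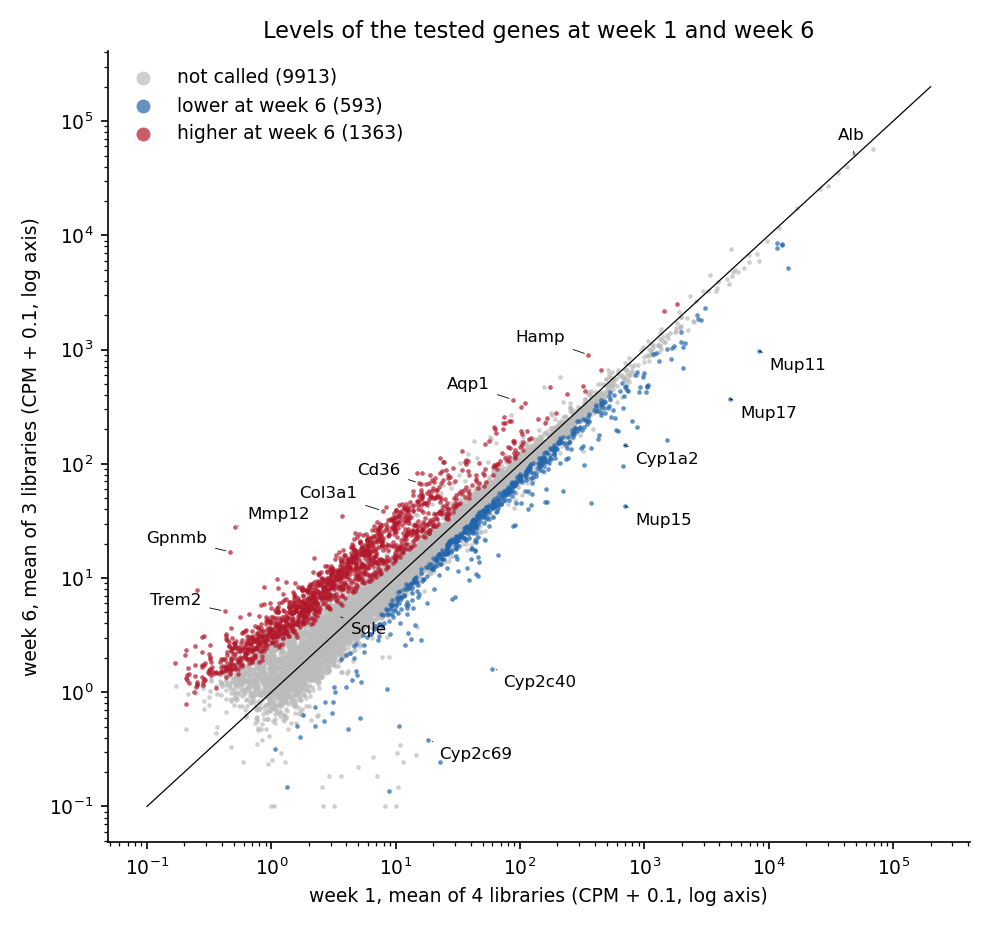
Mean level of each tested gene at week 1 (x axis) and week 6 (y axis), in CPM on log axes, with the 1363 genes called higher and the 593 called lower at week 6 marked. Mmp12 and Gpnmb lie far above the diagonal and Cyp2c69, Cyp2c40 and several Mup genes far below it.

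Among called genes of 10 CPM or more whose libraries did not overlap, 6 of the 10 largest falls were in the major urinary proteins, small carriers of pheromones that hepatocytes secrete and that males express more than females. Mup11 was at 907, 856 and 1140 CPM at week 6 and at 9270, 10200, 6200 and 7860 CPM at week 1. It fell 8.68-fold (log2 fold change -3.12 ± 0.51 (SE), edgeR adjusted p = 0.000934), and every library of week 6 was below every library of week 1, as the choice required. The normal-diet level was 5760 ± 1610 CPM (SD, n = 5), between both. Of 19 Mup genes tested, 15 were lower and 0 higher, where 5% of all tested genes were lower. Their median log2 fold change was -2.07, with a range of -4.04 (Mup15) to -0.41, negative for every member also with library size alone. Together they took 11900, 12500 and 12300 CPM at week 6 against 36500, 35000, 27900 and 32300 CPM at week 1, with 19700 to 30300 CPM on normal diet. The Mup genes are near-identical copies, so that the split of reads between single members is uncertain.

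The family did not fall evenly. Mup17 went from 5760, 4900, 3410 and 5350 CPM at week 1 to 377, 411 and 322 CPM at week 6, a 13.1-fold fall (log2 fold change -3.71 ± 0.71 (SE), adjusted p = 0.00224). Mup3 was at 11200, 11100, 12100 and 12600 CPM at week 1 and at 7620, 8140 and 7590 CPM at week 6, a 1.51-fold fall (-0.59 ± 0.15 (SE), adjusted p = 0.0106). The weeks did not overlap for either gene, which the choice of Mup17 required, while the sizes of the falls differed widely. Mup21, at 248 ± 42 CPM at week 1 and 149 ± 27.9 CPM at week 6 (SD), did not pass the test (-0.74, adjusted p = 0.221). The promoters of 5 members are printed to show how far they resemble each other. Each stretch of 79 bases is RefSeq sequence of mouse build GRCm38.p6, 5' to 3' on the minus strand of chromosome 4, and ends with the TATA-like motif TATATAAGG in capitals.
Mup11 (chr4:60662389-60662467): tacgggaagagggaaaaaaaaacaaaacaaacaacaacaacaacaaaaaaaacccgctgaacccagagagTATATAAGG
Mup15 (chr4:61439721-61439799): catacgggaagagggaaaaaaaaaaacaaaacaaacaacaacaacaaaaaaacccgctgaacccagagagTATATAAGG
Mup17 (chr4:61595849-61595927): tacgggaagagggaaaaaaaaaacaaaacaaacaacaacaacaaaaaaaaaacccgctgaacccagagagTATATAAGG
Mup3 (chr4:62087320-62087398): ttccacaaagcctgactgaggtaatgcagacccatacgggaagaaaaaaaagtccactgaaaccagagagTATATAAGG
Mup21 (chr4:62150841-62150919): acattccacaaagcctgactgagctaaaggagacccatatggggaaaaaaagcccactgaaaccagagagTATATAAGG
The first 3 sequences are those of members that fell at least 8.68-fold, and the last 2 those of Mup3 and Mup21, whose differences were smaller. RefSeq windows of 300 bases around the start (250 before to 50 after) were found for 14 of the 19 tested Mup genes. Of these, 11 held the motif on the strand of the gene. In a wider search, of both strands, 0.37% of 27025 symbols with a window held it. Mup15 and Mup17 each share an identical run of 154 bases with the window of Mup11, whereas Mup3 and Mup21 share at most 28. In the other windows with the motif the longest such run was 64 bases for Mup10, 114 for Mup14, 125 for Mup2, 126 for Mup18, 168 for Mup19 and 169 for Mup9. The match is a description of these letters and not a test of what they do. Mup3 and Mup21 were picked after their values were seen, and whether likeness to Mup11 goes with the size of a fall was not tested.

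**Figure D2:**
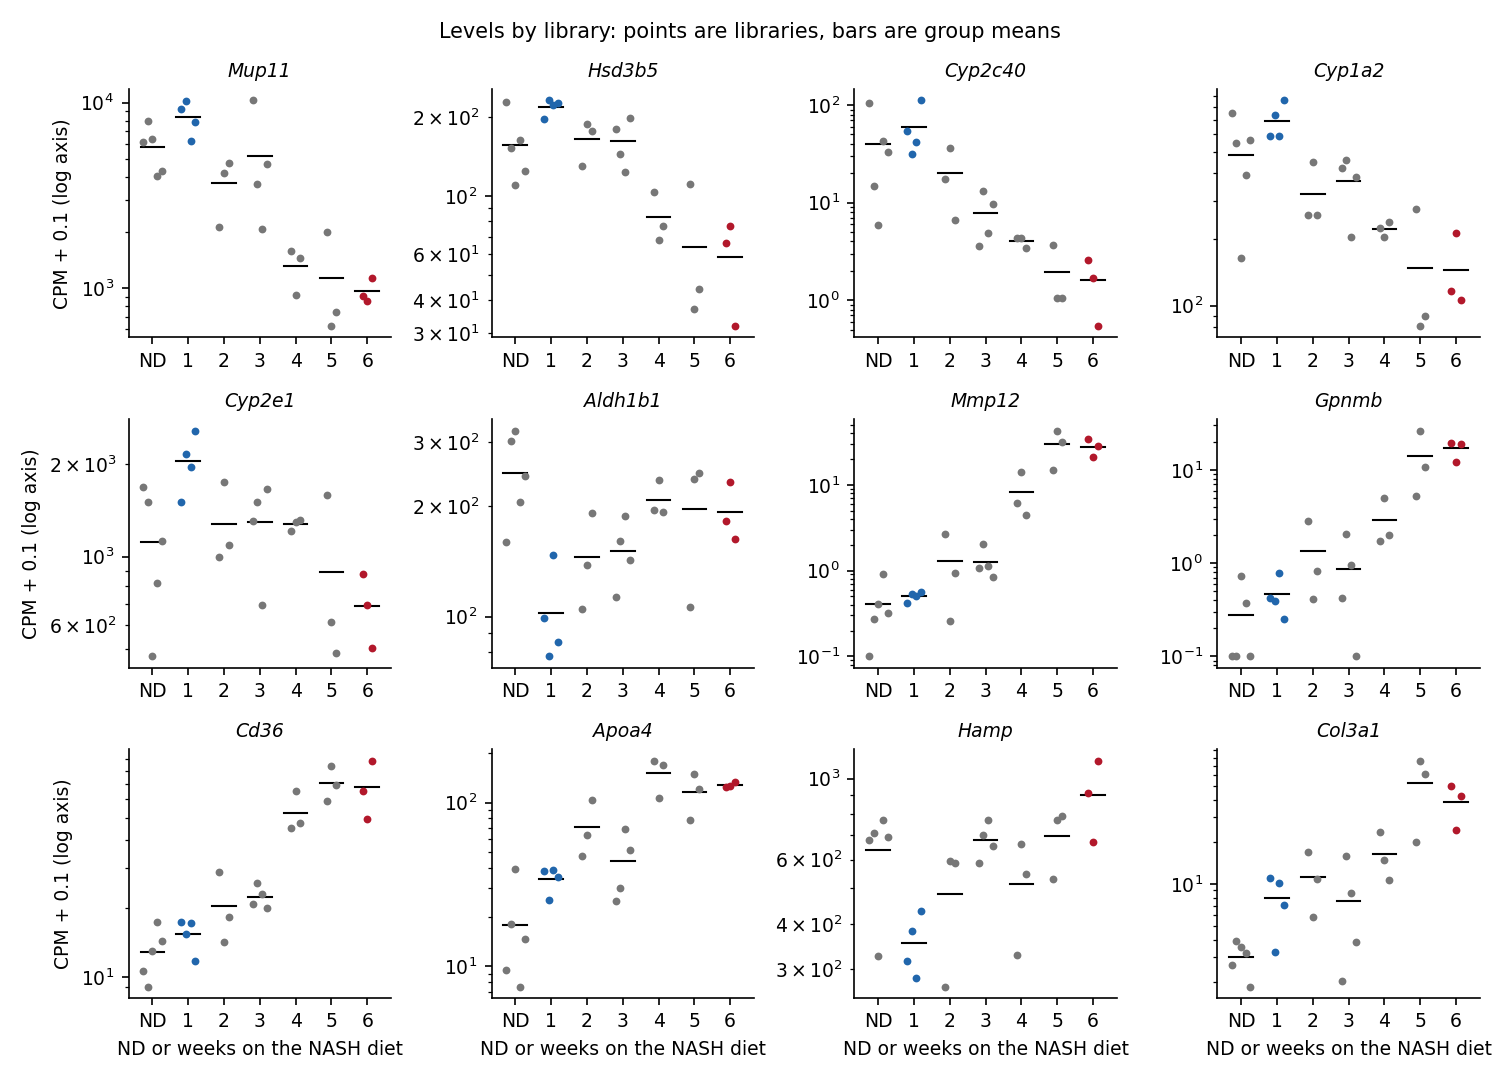
Level of 12 genes in each of the 25 libraries (y axis, CPM + 0.1 on a log axis) by group from normal diet through weeks 1 to 6 (x axis), with week 1 in blue and week 6 in red. Mup11, Hsd3b5 and Cyp2c40 are lowest in weeks 5 and 6, while Mmp12 lies near 0.4 CPM at week 1 and at 21.1 to 34.4 CPM at week 6.

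Genes of the male-biased and growth hormone dependent list fell too. The list itself holds Mup1, Mup3, Mup7, Mup20 and Mup21, so its counts are not separate from those of the Mup family. Other lists share 9 of its tested members. Of 27 tested members of the list, 17 were lower and 0 higher at week 6 (5% of all genes were lower), with a median log2 fold change of -0.94. Hsd3b5, a steroid-metabolising enzyme of male liver, was at 66.3, 76.5 and 31.8 CPM at week 6 and at 197, 232, 223 and 226 CPM at week 1 (log2 fold change -1.91 ± 0.35 (SE), adjusted p = 0.00158). Cyp7b1, which hydroxylates oxysterols in the acidic pathway of bile acid synthesis, was at 104, 123 and 66.8 CPM against 369, 350, 301 and 294 CPM (-1.75 ± 0.33 (SE), adjusted p = 0.00168). The weeks did not overlap in either gene. Selenbp2 (-2.03), Ugt2b38 (-2.05), Elovl3 (-1.44), which elongates fatty acids, and the protease inhibitor Serpina1e (-1.47) also fell. Serpina1e and Ugt2b38 have close copies and are uncertain as single genes. The receptor itself, Ghr, was at 325, 249 and 358 CPM at week 6 against 452, 481, 427 and 532 CPM (-0.61 ± 0.14 (SE), adjusted p = 0.0049). Igf1, the hormone that growth hormone induces in liver (-0.26, adjusted p = 0.205), Stat5b (-0.44, adjusted p = 0.0561) and the feedback inhibitor Socs2 (-1.22, adjusted p = 0.322) did not pass the test. Of 20 female-biased genes listed, 8 were tested and 4 rose, 0 fell (11.5% of all genes rose). The mean log2 CPM of these 8 was 2.05 ± 0.35 on normal diet (SD, n = 5), 1.38 ± 0.28 at week 1 and 2.32 ± 0.24 at week 6. Their levels were low, with Cux2, a repressor of male-biased genes, at 2.07, 1.15 and 1.03 CPM at week 6 and at most 0.48 CPM at week 1 (log2 fold change 2.22). The count of higher female-biased genes was 1 without week 6 replicate 1 or week 1 replicate 2, 3 or 4, 2 without week 6 replicate 2, and 0 without both week 1 libraries with pancreatic transcripts. The Cux2 call was lost without week 6 replicate 1 or week 1 replicate 2, 3 or 4 (adjusted p of 0.0559 to 0.156), and that of Ugt2b38 without week 6 replicate 1 (0.0716) or 2 (0.0535). The count of lower male-biased genes was 11 without week 6 replicate 1. With the marker score in the model the count was 0 at a list median of -0.67.

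Among those 10 falls, the genes outside the Mup family were 2 cytochromes, an esterase and a receptor. Cyp2c40 was at 2.51, 1.58 and 0.442 CPM at week 6 and at 53.9, 31.8, 41.9 and 112 CPM at week 1 (log2 fold change -5.22 ± 0.99 (SE), adjusted p = 0.00214). Cyp2c69 went from 20.8, 12.6, 11 and 28.6 CPM to 0.546, 0.144 and 0.147 CPM (-5.83 ± 1.19 (SE), adjusted p = 0.00324). Both are P450 enzymes of the Cyp2c cluster with close copies, so that each is uncertain as a single gene, and their RefSeq promoter windows share an identical run of 143 bases. The carboxylesterase Ces4a (-4.67 ± 0.69 (SE), adjusted p = 0.000375) and the vasopressin receptor Avpr1a (-2.52 ± 0.45 (SE), adjusted p = 0.00124) fell as well. The choice of these 10 falls required that the weeks not overlap. On normal diet Cyp2c40 ranged from 5.77 to 104 CPM over 5 libraries, so week 6 was below every normal-diet library, while 3 of the 4 libraries of week 1 were within their range.

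Genes of the pericentral zone fell together. Of 20 tested, 13 were lower and 0 higher (5% of all genes were lower), with a median log2 fold change of -1.16, and 14 were separated between the weeks (9.37% of all genes). Cyp1a2, which oxidises caffeine and aromatic amines, was at 116, 214 and 106 CPM at week 6 and at 591, 734, 588 and 856 CPM at week 1 (-2.25 ± 0.48 (SE), adjusted p = 0.00398). Cyp2e1, the ethanol-inducible P450, was at 879, 694 and 506 CPM against 1510, 2150, 1960 and 2570 CPM (-1.56 ± 0.42 (SE), adjusted p = 0.0163). The glutamine synthetase gene Glul, restricted to cells next to the central vein, was at 366, 569 and 496 CPM against 1050, 809, 1290 and 1040 CPM (-1.14 ± 0.31 (SE), adjusted p = 0.0162). Each of the 3 was higher in every library of week 1. The Wnt targets Axin2 (-1.79), Lgr5 (-1.72) and Tbx3 (-2.02) and the vitamin C synthesis gene Gulo (-1.67) were lower too, with adjusted p of 0.0421, 0.018, 0.0368 and 0.00739, whereas the Wnt feedback gene Nkd1 did not pass the test (0.51, adjusted p = 0.382). The list's mean log2 CPM was 5.87 ± 0.52 on normal diet (SD, n = 5), 6.58 ± 0.22 at week 1 and 5.46 ± 0.17 at week 6, and 17 of 20 members were above their normal-diet mean at week 1 while 15 of 20 were below it at week 6. Glul at week 6, 477 CPM on average, equalled its normal-diet mean of 477 CPM. The Glul call was lost without week 6 replicate 1 (adjusted p = 0.0864), that of Lgr5 without the same library (0.0948) or week 1 replicate 3 (0.0525), and that of Cyp2e1 without week 6 replicate 3 (0.0724). The Axin2 call was lost without any single library (0.0527 to 0.115) and that of Tbx3 without any except week 1 replicate 3 (0.0515 to 0.125). The count of lower pericentral genes was 7 without week 6 replicate 1 or 3, 4 without both week 1 libraries that held pancreatic transcripts and 0 with the marker score in the model, where the list median was -0.61.

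Of 24 periportal genes listed, 4 rose and 2 fell, with a median of 0.13, where 11.5% of all tested genes rose and 5% fell. The mitochondrial aldehyde dehydrogenase Aldh1b1 was at 182, 233 and 163 CPM at week 6 and at 99, 77.8, 147 and 85.2 CPM at week 1 (log2 fold change 0.91 ± 0.28 (SE), adjusted p = 0.0317), but its normal-diet mean was 246 CPM, above both. Etnppl, which degrades phosphoethanolamine, likewise stood at 88.9 CPM at week 1, 151 CPM at week 6 and 223 CPM on normal diet (0.76, adjusted p = 0.0257). Cps1, the first enzyme of the urea cycle, fell (-0.67). Mat1a and Gsta2, from other lists, had the same order of levels. Mat1a, which makes S-adenosylmethionine, was at 2190, 2670 and 1720 CPM at week 6, 1270, 1530, 1300 and 1610 CPM at week 1 and 2750 CPM on normal diet (0.62, adjusted p = 0.0185). Gsta2, a glutathione transferase, was at 21.1, 26 and 25.3 CPM, 8.15, 9.84, 8.93 and 7.8 CPM, and 48.3 CPM (1.47, adjusted p = 0.021). Without week 6 replicate 2 the calls of Aldh1b1, Etnppl, Mat1a, Gsta2 and Cps1 were all lost (adjusted p of 0.125, 0.132, 0.117, 0.0553 and 0.0509). That of Aldh1b1 was also lost without week 6 replicate 1 or week 1 replicate 1, 2 or 4 (0.0603 to 0.0959), that of Etnppl without week 1 replicate 1 (0.0693) or 2 (0.0675), that of Mat1a without week 1 replicate 1 (0.0505) and that of Gsta2 without week 6 replicate 3 (0.0541) or week 1 replicate 4 (0.0574). The count of periportal genes that rose was 1 without week 1 replicate 2 and 2 without week 6 replicate 2 or week 1 replicate 1 or 4. The count that fell was 0 without week 6 replicate 2 and 1 without week 6 replicate 1 or 3 or week 1 replicate 1, 2 or 4.

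Drug metabolism, bile acid and plasma protein genes fell as well. Other lists, the pericentral and male-biased ones among them, share 8 of the tested xenobiotic and 6 of the bile acid genes, so the counts are not separate. Of 27 tested xenobiotic genes 11 were lower and 0 higher, with a median log2 fold change of -0.61, where 5% of all tested genes were lower and 11.5% higher. Beside Cyp1a2 and Cyp2e1 these were Cyp2c37 (-1.66), Cyp2c29 (-1.56) and Cyp2c50 (-1.36), Ugt2b1 (-1.13) and Ugt2b5 (-0.44), the carboxylesterases Ces2a (-0.61) and Ces3a (-0.69), Cyp2d9 (-0.72) and the aldehyde oxidase Aox3 (-0.72), of which the Cyp2c, Ugt2b and Ces members have close copies. Of 20 bile acid genes, 8 were lower and 2 higher (median -0.35), against the same 5% and 11.5%. Cyp2c70, which makes muricholic acids in mice, was at 514, 522 and 378 CPM at week 6 and at 1050, 980, 1000 and 1150 CPM at week 1 (-1.15 ± 0.19 (SE), adjusted p = 0.000715). Cyp27a1 of the acidic pathway was at 136, 132 and 133 CPM against 217, 312, 199 and 303 CPM (-0.95 ± 0.19 (SE), adjusted p = 0.00235). The rate-limiting enzyme of the classic pathway, Cyp7a1 (-0.38, adjusted p = 0.649), and Cyp8b1 (-0.06, adjusted p = 0.88) did not pass the test. Of the transporters, the bile salt exporter Abcb11 fell (-0.53) and the basolateral exporters Abcc3 (0.52) and Abcc4 (1.52) rose, the last from 1.93 to 5.54 CPM. Leaving out week 6 replicate 3, week 1 replicate 2 or week 1 replicate 4 gave 6, 7 and 7 lower xenobiotic genes, and leaving out week 6 replicate 2, week 1 replicate 2 or week 1 replicate 4 gave 5, 5 and 4 lower bile acid genes. Library size alone gave 6 and 5, and leaving out both week 1 libraries with pancreatic transcripts gave 5 lower xenobiotic genes. The count of higher bile acid genes was 0 without week 1 replicate 4 and 1 without any other single library except week 1 replicate 3. The Cyp2d9 call was lost without week 6 replicate 1 or week 1 replicate 2 or 4 (adjusted p of 0.0625 to 0.199), that of Ces2a without week 6 replicate 1 or 3 or week 1 replicate 3 or 4 (0.054 to 0.191), and that of Aox3 without week 6 replicate 2 or 3 or week 1 replicate 2 (0.0583 to 0.08). The Cyp2c37 call was lost without any single library except week 1 replicate 1 (0.0557 to 0.1), that of Ugt2b5 without any except week 6 replicate 1 or week 1 replicate 1 (0.0506 to 0.156), and that of Cyp2c50 without week 6 replicate 3 (0.0512). Of the exporters, the Abcb11 call was lost without week 6 replicate 1 or 2 or week 1 replicate 2 or 4 (0.0509 to 0.142), that of Abcc3 without any single library except week 6 replicate 1 or week 1 replicate 3 (0.0603 to 0.141), and that of Abcc4 without week 6 replicate 1 (0.0569) or week 1 replicate 4 (0.0581).

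Of 30 complement and coagulation genes, 14 were lower and 1 higher, with a median of -0.41, where 5% of all tested genes were lower and 11.5% higher. The male-biased list shares 3 of these genes, C6, C8a and C8b. Complement C9, part of the membrane attack complex, was at 768, 729 and 987 CPM at week 6 and at 1870, 1790, 1440 and 1440 CPM at week 1 (log2 fold change -0.98 ± 0.20 (SE), adjusted p = 0.00223). C8b (-1.10), C6 (-0.79) and C8a (-0.57) of the same complex and coagulation factor F11 (-1.18) also fell, while C3 did not pass the test (-0.23, adjusted p = 0.428). The member that rose was Cfd, a serine protease best known from fat cells, at 19.7, 69.5 and 15.7 CPM against 3.68, 4.2, 2.61 and 3.98 CPM (3.27 ± 0.69 (SE), adjusted p = 0.00394). Among 10 defining hepatocyte markers 5 fell, namely Cyp2e1, Cps1, Hnf4a (-0.64), the nuclear receptor that maintains hepatocyte identity, Apoa1 (-0.61) and Serpina1a (-0.39), and 0 rose. Alb did not pass the test (0.07 ± 0.13 (SE), adjusted p = 0.756). The count of lower complement genes was 5 without week 6 replicate 1 and 9 without week 6 replicate 3, that of the hepatocyte markers was 3 without week 6 replicate 3, and library size alone gave 8 complement genes. Without week 6 replicate 1 the calls of C6, C8a, C8b and Serpina1a were lost (adjusted p of 0.0734, 0.102, 0.0698 and 0.142). Those of C6, C8a and Serpina1a were also lost without week 6 replicate 3 (0.0529, 0.0753 and 0.0739), that of C8a without week 1 replicate 1 (0.0505) and that of Serpina1a without week 1 replicate 2 (0.0914).

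**Figure D3:**
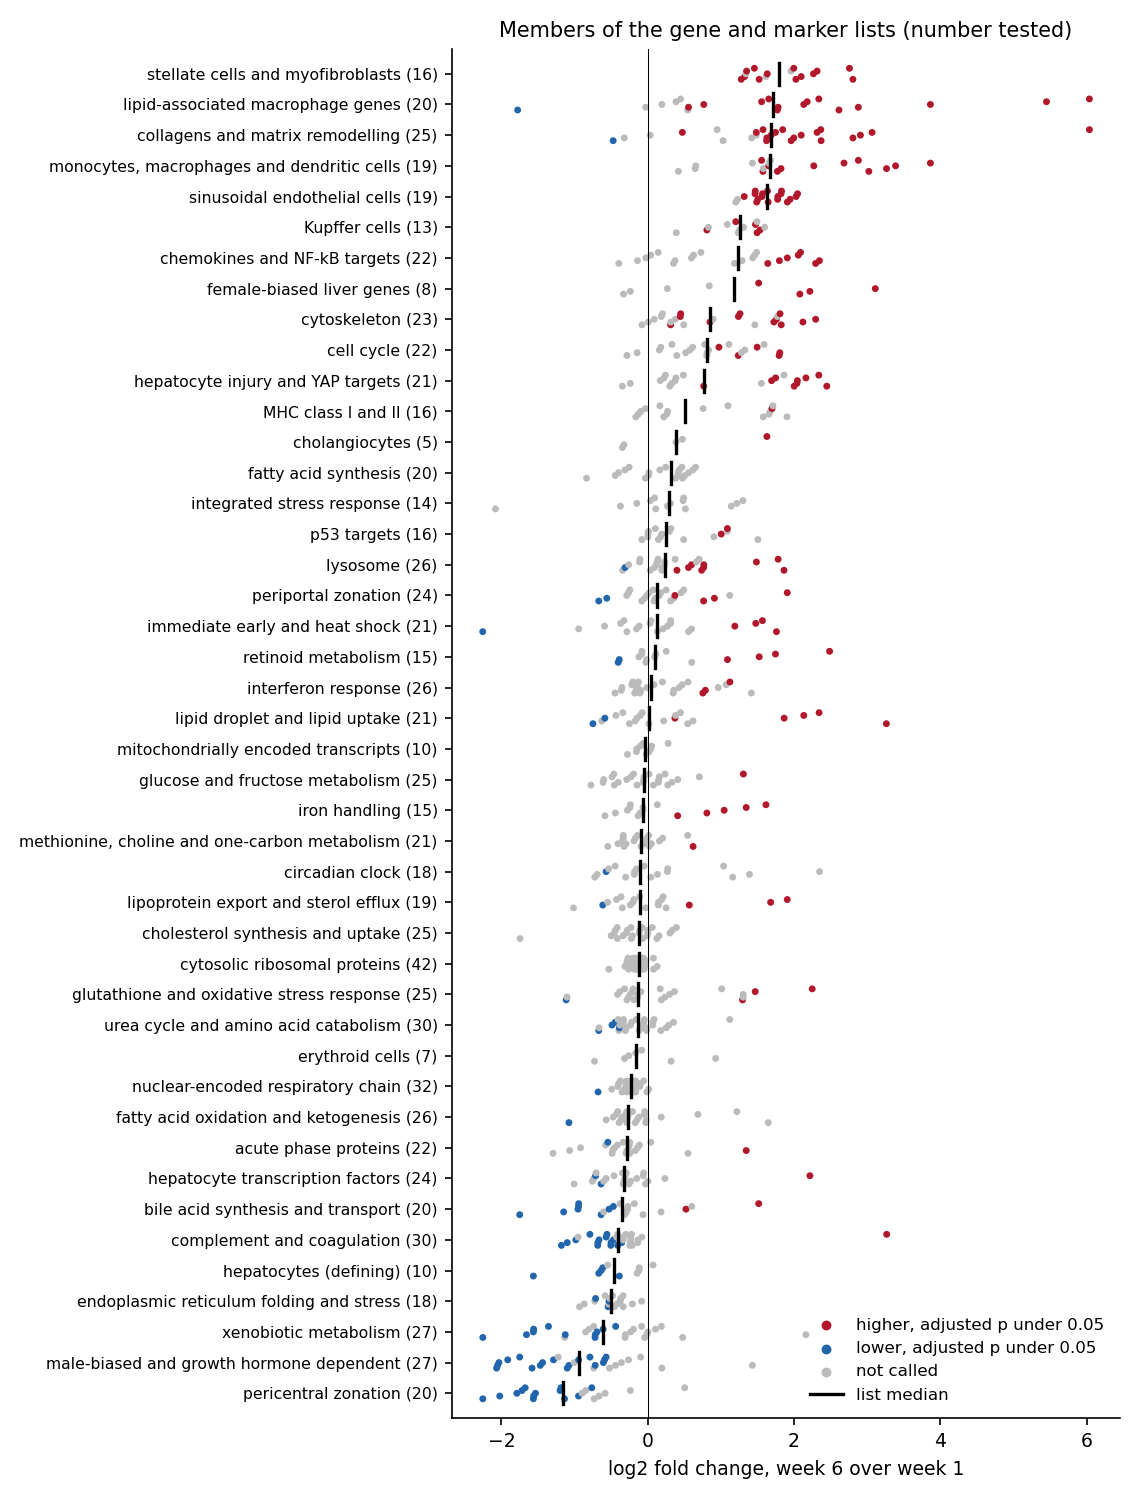
Log2 fold change from week 1 to week 6 (x axis) of every tested member of the lists with at least 5 tested genes (rows), each point a gene and each bar the list median. The medians of the Kupffer, endothelial, macrophage, stellate and collagen lists lie between 1.26 and 1.80 and those of the male-biased and pericentral lists at -0.94 and -1.16.

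Among the largest rises were genes of macrophages that take up lipid. Mmp12, the macrophage elastase, was at 34.4, 21.1 and 28 CPM at week 6 and at 0.32, 0.434, 0.412 and 0.459 CPM at week 1 (log2 fold change 6.04 ± 0.58 (SE), adjusted p = 7.36e-06). Gpnmb, a glycoprotein of lipid-laden macrophages, was at 19.5, 12.1 and 19 CPM against 0.32, 0.289, 0.687 and 0.153 CPM (5.45 ± 0.77 (SE), adjusted p = 0.000375). Both were under 1 CPM in every week 1 library and above 10 CPM in every week 6 library. Trem2, the lipid-sensing receptor of these cells, was at 7.75, 3.16 and 4.12 CPM at week 6 and at 0.16, 0.723, 0.412 and 0 CPM at week 1 (3.86 ± 0.70 (SE), adjusted p = 0.00128). Of 20 genes in the list of lipid-associated macrophages, 14 rose and 1 fell (11.5% of all genes rose), with a median of 1.71. Other lists share 15 of these 20 genes, so their counts are not separate. Others that rose were Itgax (2.88), Capg (2.62), Lgals3 (2.34), Cd63 (2.18) and the lysosomal protease Ctsd (0.77), and the one that fell was Fabp5, a fatty acid binding protein (-1.78). In the list of monocytes, macrophages and dendritic cells 12 of 19 rose and 0 fell (median 1.68), and 16 were separated between the weeks (15.3% of all genes). Its summed level was 797 to 1210 CPM at week 6 and 170 to 516 CPM at week 1. The monocyte chemokine receptors Cx3cr1 (3.39) and Ccr2 (3.26) also rose in that list, with 6.9 to 9.39 CPM and 5.9 to 13.2 CPM at week 6.

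Of 13 tested markers of resident Kupffer cells, 5 rose and 0 fell (11.5% of all genes rose), with a median of 1.26, and 11 were separated between the weeks (15.3% of all genes). Their summed level was 1620 to 1860 CPM at week 6 and 429 to 1030 CPM at week 1. C1qb, a complement component of macrophages, was at 239, 245 and 225 CPM against 109, 54.4, 105 and 57.2 CPM (log2 fold change 1.54 ± 0.45 (SE), adjusted p = 0.0253). Timd4, a receptor for dying cells on embryo-derived Kupffer cells, rose (1.20, adjusted p = 0.0497), while the lectin Clec4f (1.24, adjusted p = 0.0542), Vsig4 (1.31, adjusted p = 0.0529) and the scavenger protein gene Cd5l (1.6, adjusted p = 0.0553) missed the threshold narrowly. The C1qb call was lost without any single library except week 1 replicate 1 or 3 (0.0516 to 0.0778) and that of Timd4 without any except week 1 replicate 3 (0.0739 to 0.141). The count was 1 without any single library of week 6 or without week 1 replicate 2 or 4, 3 without week 1 replicate 1 and 10 without week 1 replicate 3.

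Sinusoidal endothelial markers were higher together. Of 19 tested, 17 rose and 0 fell (11.5% of all genes rose), and 18 were separated between the weeks (15.3% of all genes). Every log2 fold change lay between 1.21 and 2.05 with a median of 1.64. The water channel Aqp1 was at 397, 451 and 242 CPM at week 6 and at 103, 66.8, 117 and 64.2 CPM at week 1 (2.05 ± 0.49 (SE), adjusted p = 0.00844). The scavenger receptor Stab2 (1.47), the nuclease Dnase1l3 (1.78), the lectin Clec4g (1.64) and the membrane trafficking gene Ehd3 (1.63), the last not on the list, rose alike. The list's summed level was 1810 to 2240 CPM at week 6 and 429 to 764 CPM at week 1. Maf, a transcription factor found in macrophages and in this endothelium, was at 550, 372 and 485 CPM against 213, 147, 195 and 138 CPM (1.43 ± 0.28 (SE), adjusted p = 0.00218). Markers of other blood cells were few. Of 7 tested erythroid and 3 tested neutrophil genes 0 were called in either direction by edgeR, DESeq2 or voom, with 0 at an unadjusted p under 0.05. Of the 2 tested members of the lymphocyte list, Ptprc rose (1.67) and Cd4 fell (-1.80). The Cd4 call was lost without week 1 replicate 2 (adjusted p = 0.0691) or week 6 replicate 2 (0.0597). Which cells the Ptprc transcripts came from was not tested.

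Stellate cells, which store vitamin A and turn into matrix-producing myofibroblasts, were represented by 16 tested markers, of which 13 rose and 0 fell (median 1.80), where 11.5% of all tested genes rose. All 16 were separated between the weeks (15.3% of all genes), and their summed level was 478 to 834 CPM at week 6 and 119 to 336 CPM at week 1. The fibrillar collagen gene Col1a1 was at 16.6, 10.5 and 17.1 CPM against 4.16, 0.723, 1.92 and 1.68 CPM (log2 fold change 2.81 ± 0.66 (SE), adjusted p = 0.0069), and Col3a1 at 49.7, 24.2 and 42.1 CPM against 10.9, 3.18, 10 and 7.03 CPM (2.32 ± 0.54 (SE), adjusted p = 0.00686). The proteoglycan gene Dcn was at 301, 220 and 421 CPM against 171, 58.7, 114 and 60.4 CPM (1.63, adjusted p = 0.0238). The vitamin A esterase Lrat rose (1.52), as did Cygb, a globin of quiescent stellate cells (2.42), and the retinoic acid hydroxylase Cyp26b1 (2.49), at 87.9, 109 and 51.4 CPM against 15, 19.7, 9.48 and 14.8 CPM. The myofibroblast actin Acta2 rose from 0.153 to 1.12 CPM (2.76, adjusted p = 0.0257). Of 25 collagen and matrix genes 18 rose and 1 fell (median 1.69, with 11.5% and 5% of all genes), and the one that fell was fibronectin Fn1 (-0.47), which hepatocytes secrete. The Acta2 and Dcn calls were lost without week 6 replicate 3 (adjusted p of 0.0803 and 0.0944), week 1 replicate 2 (0.0784 and 0.0746) or week 1 replicate 4 (0.0606 and 0.074), and that of Dcn also without week 6 replicate 1 (0.0548). The calls of Cyp26b1 and Fn1 were lost without week 6 replicate 2 (0.0534 and 0.099), and that of Fn1 also without week 1 replicate 4 (0.0651). The count of stellate markers was 6 without week 6 replicate 3 or week 1 replicate 2 or 4, and 3 without both libraries that held pancreatic transcripts, where 11 endothelial and 7 monocyte, macrophage and dendritic cell markers rose. With the marker score in the model the list medians were 0.33 for endothelial, -0.51 for Kupffer and 0.20 for stellate markers, from which lists the score was made, and 0.26 for collagens.

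**Figure D4:**
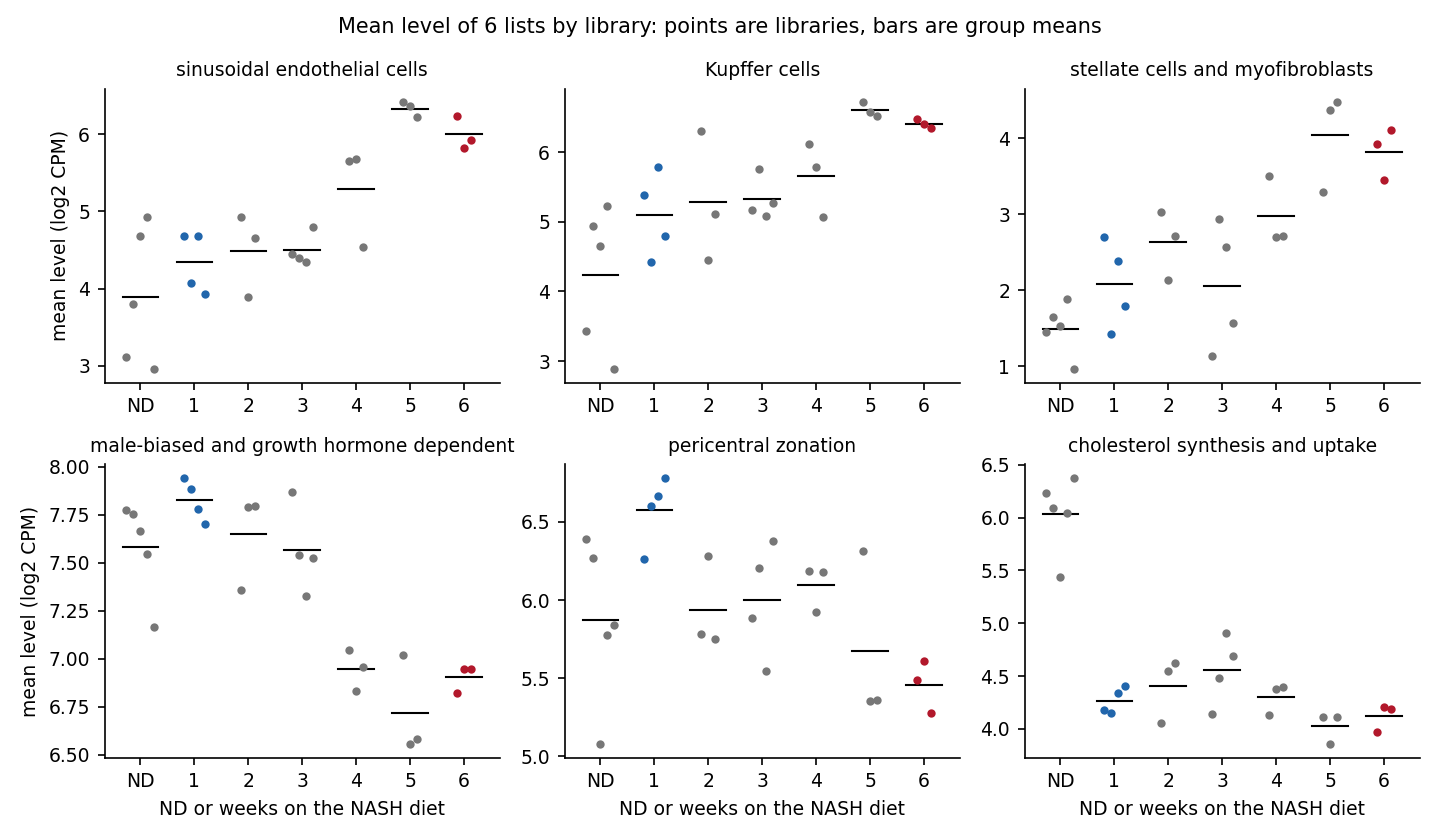
Mean log2 CPM of 6 gene lists (panels) in each of the 25 libraries, by group from normal diet through weeks 1 to 6. The endothelial, Kupffer and stellate lists stand highest in weeks 5 and 6, the male-biased list is lowest there, the pericentral list is highest at week 1 (6.58) and the cholesterol list is highest on normal diet (6.04).

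Genes of fat storage and uptake split. Cd36, the fatty acid translocase, was at 65.3, 49.1 and 88.6 CPM at week 6 and at 17.4, 15.3, 17.2 and 11.6 CPM at week 1 (log2 fold change 2.13 ± 0.23 (SE), adjusted p = 1.21e-05), with 12.8 ± 3.23 CPM on normal diet. The lipid droplet protein gene Cidec was at 4.48, 4.6 and 4.27 CPM against 1.12, 0.145, 0.275 and 0.306 CPM (3.26 ± 0.60 (SE), adjusted p = 0.00135). Fabp4, a fatty acid binding protein of fat cells, macrophages and endothelium, was at 64.8, 18.1 and 43.6 CPM against 7.68, 6.08, 13.9 and 5.5 CPM (2.34, adjusted p = 0.00453). Plin2, the main coat protein of hepatocyte droplets, was at 501 CPM at week 1 and 467 CPM at week 6 and did not pass the test (-0.10, adjusted p = 0.777), and Abhd5, the activator of triglyceride lipase, fell (-0.75). Of 21 tested droplet and uptake genes 5 rose and 2 fell (median 0.02), where 11.5% of all tested genes rose and 5% fell. Apoa4, an apolipoprotein that rises with liver fat, was at 125, 127 and 133 CPM against 38.1, 25.2, 38.5 and 34.9 CPM (1.91 ± 0.43 (SE), adjusted p = 0.00548). Cd36 and Fabp4 are also expressed by the macrophages and endothelium whose markers rose, and the part of those cells in these rises was not tested. Without week 1 replicate 2 or 3, 3 droplet and uptake genes rose, and without week 6 replicate 1 or 3 or week 1 replicate 1 or 2, 1 fell.

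Of 25 cholesterol genes 0 were called in either direction by edgeR, DESeq2 or voom, and 2 had an unadjusted p under 0.05 (median -0.11, and 0.06 with library size alone), although their mean log2 CPM was 6.04 on normal diet and 4.27 and 4.12 at weeks 1 and 6. With no filter on low counts 1 of them was lower, and likewise 1 with only both weeks in the model. Over all tested genes edgeR called 11.5% higher and 5% lower. Squalene epoxidase Sqle stood at 63.3 CPM on normal diet, 3.51 CPM at week 1 and 4.47 CPM at week 6. Of 20 fatty acid synthesis genes 0 were called as well by the 3 tools, with 0 at an unadjusted p under 0.05 (median 0.31), with Fasn at 0.65 (adjusted p = 0.536) and Scd1 at 0.62 (adjusted p = 0.303). Of 26 fatty acid oxidation genes 1 fell, the male-biased hydroxylase Cyp4a12a (-1.08), and 0 rose, where 5% of all tested genes fell. The count of falls was 3 without week 6 replicate 1 or 2 or week 1 replicate 3 and 2 without week 1 replicate 1. With edgeR 0 of 42 ribosomal protein genes, 0 of 10 mitochondrially encoded genes and 0 of 14 genes of the integrated stress response were called, and 4, 0 and 1 had an unadjusted p under 0.05. DESeq2 called 2, 0 and 1 of them lower, and voom 2, 0 and 0. Of 18 genes of protein folding in the endoplasmic reticulum 3 fell (5% of all tested genes fell), the transcription factor Xbp1 (-0.71), Pdia6 (-0.54) and the sensor Ern1 (-0.53). With library size alone 0 did. The Pdia6 call was lost without any single library (adjusted p of 0.057 to 0.121) and that of Xbp1 without week 6 replicate 2 (0.141) or week 1 replicate 1 (0.074), 2 (0.0574) or 3 (0.0614). The count was 1 when any one of these 4 libraries was left out and 2 when any other was.

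Among iron genes the hormone gene Hamp rose. It encodes hepcidin, the liver hormone that blocks iron export. It was at 911, 670 and 1120 CPM at week 6 and at 316, 382, 284 and 433 CPM at week 1, a 2.54-fold rise (log2 fold change 1.35 ± 0.29 (SE), adjusted p = 0.00371). The normal-diet level was 636 ± 177 CPM (SD, n = 5), and this mean was above all 4 libraries of week 1. The Hamp promoter is driven by BMP and by IL-6 signals through SMAD and STAT3. The stretch below is RefSeq sequence of GRCm38.p6, 120 bases on the minus strand, 5' to 3', with 2 matches in capitals: GGCGCC, the core of BMP-responsive elements, 109 bases before the annotated start, and TTCTTGGAA, a match to the STAT motif TTCNNNGAA, 97 bases before it.
Hamp (chr7:30944030-30944149): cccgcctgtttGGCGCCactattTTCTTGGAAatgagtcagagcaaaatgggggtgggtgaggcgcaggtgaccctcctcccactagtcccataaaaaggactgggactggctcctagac
Searched on both strands, 13.4% of the 27025 symbols with a window of 300 bases held GGCGCC, 9.55% held TTCNNNGAA and 0.762% held both in 1 window. The BMP targets Id1 (1.62, adjusted p = 0.00467) and Smad7 (1.05, adjusted p = 0.0281) rose as well. Bmp2, an endothelial ligand that induces hepcidin, was at 105, 68.2 and 92.9 CPM against 32.6, 23.4, 29.3 and 15.1 CPM (1.82 ± 0.37 (SE), adjusted p = 0.00331), beside the other endothelial markers. The serum amyloid genes Saa1 (-1.29, adjusted p = 0.312) and Saa2 (-0.92, adjusted p = 0.502), which follow IL-6, did not pass the test. Whether BMP or IL-6 signals had a part in the Hamp rise was not tested. Of 22 acute phase genes 1 rose, Hamp, and 1 fell, the fibrinogen gene Fgg (-0.54), where 11.5% of all tested genes rose and 5% fell. Of 15 tested iron genes 5 rose and 0 fell (11.5% of all genes rose), the exporter Slc40a1 (0.81) and Hfe (0.41) being the others. The count was 3 without week 6 replicate 1 or week 1 replicate 4, and the Hfe call was lost without either (adjusted p of 0.0687 and 0.0641). The Smad7 call was lost without any single library except week 6 replicate 2 or week 1 replicate 1 (0.0541 to 0.158) and that of Fgg without any single library (0.0514 to 0.152). With the marker score in the model the Hamp difference was 1.75 (adjusted p = 0.313).

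Genes of injury, cytoskeleton and growth rose in part. Of 21 tested injury and YAP target genes 9 rose and 0 fell (median 0.77), where 11.5% of all tested genes rose and 5% fell, as for each list that follows. The calcium-binding S100a11 was at 25.1, 28.6 and 25.2 CPM at week 6 and at 7.36, 3.33, 7.83 and 7.03 CPM at week 1 (log2 fold change 2.04 ± 0.31 (SE), adjusted p = 0.000496), and the annexin Anxa2 rose likewise (1.69 ± 0.26 (SE), adjusted p = 0.000416). Ccn2, a matrix-cell signal and YAP target (2.05), and Sox4 (2.16) also rose. Of 23 cytoskeletal genes 12 rose and 0 fell (median 0.85), led in p by the actin crosslinker Flna (2.12), with vimentin Vim at 1.81. Of 26 lysosomal genes 9 rose and 1 fell (median 0.23), the fall being lost without any single library except week 6 replicate 3 or week 1 replicate 3. Of 22 cell cycle genes 5 rose and 0 fell (median 0.81), with the proliferation marker Mki67 at 4.91, 7.77 and 8.98 CPM against 3.36, 1.16, 1.92 and 1.83 CPM (1.80, adjusted p = 0.0228). Of 22 chemokine and NF-kB genes 7 rose and 0 fell (median 1.24), among them Ccl6 (2.09), Cxcl16 (1.91) and the monocyte attractant Ccl2 (1.80). Without week 6 replicate 1 the calls of Sox4, Ccn2, Vim and Ccl2 were lost (adjusted p of 0.0732, 0.125, 0.0718 and 0.0672). Those of Ccn2, Vim and Ccl2 were also lost without week 1 replicate 2 (0.106, 0.0544 and 0.0674) or 4 (0.094, 0.051 and 0.0646), those of Ccn2 and Ccl2 without week 6 replicate 3 (0.13 and 0.0751), and that of Ccn2 without week 1 replicate 1 (0.0645). The Mki67 call was lost without week 6 replicate 2 or 3 or week 1 replicate 2 or 4 (0.0556 to 0.079). Many of these genes are expressed by macrophages, endothelium and stellate cells as well as by hepatocytes. The share of those cells in the rises was not tested. In the model with the marker score the medians were 0.25 for injury, 0.14 for cytoskeletal, -0.02 for cell cycle and -0.22 for chemokine genes. That score did not overlap between the weeks, so the model cannot tell the share of those cells from the difference in weeks. Leaving out 1 library gave 7 to 14 cytoskeletal (7 without week 6 replicate 1), 5 to 10 lysosomal (5 without week 6 replicate 1, week 1 replicate 1 or week 1 replicate 2, and 6 without week 6 replicate 2), 2 to 7 cell cycle (2 or 3 without week 6 replicate 2 or 3 or week 1 replicate 1, 2 or 4) and 3 to 9 chemokine genes (3 or 4 without week 6 replicate 1 or 3 or week 1 replicate 2 or 4).

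The changes were placed among the other weeks by the same genes' levels. Relative to week 1, the median of the 1363 genes that rose was 0.20 log2 units higher at weeks 2 and 3, 0.77 at week 4, 1.72 at week 5 and 1.55 at week 6, and on normal diet it was -0.29. For the 593 genes that fell the medians were -0.15 at weeks 2 and 3, -0.30 at week 4, -0.54 at week 5 and -0.59 at week 6, and on normal diet -0.09. The week 6 and week 1 values are those the genes were chosen by. Each median is a difference from week 1, so the choice also moves those of the other groups, upward for rises and downward for falls. The size of this shift was not tested. The marker score followed the same order, from 3.84 at week 1 through 4.14, 3.96, 4.64 and 5.66 at weeks 2 to 5 to 5.41 at week 6, with 3.21 on normal diet. Mup11 and the male-biased list were already low at week 4, where the list's mean log2 CPM was 6.94 against 7.57 at week 3 and 7.83 at week 1. The pericentral list stepped down between week 1 and week 2, to 5.94, and was between 5.67 and 6.10 from week 3 to week 5.

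Week 5 against week 2 gave the same question in 6 other libraries, of which neither week 6 nor week 1 holds any. There 2211 genes (18.6%) were called, 1417 higher (11.9%) and 794 lower (6.69%). Of the 1363 genes that rose from week 1 to week 6, 1353 (99.3%) had a positive log2 fold change there, against 47.8% of all tested genes, and 999 (73.3%, or 70.5% of the genes higher at week 5) were called higher. Of the 593 genes that fell, 548 (92.4%) had a negative one, against 52.2% of all, and 218 (36.8%, or 27.5% of the genes lower at week 5) were called lower. In either direction 0 genes were called the opposite way. Hsd3b5 (-1.36, adjusted p = 0.0129), Cyp7b1 (-1.32, adjusted p = 0.0111), Mup11 (-1.71, adjusted p = 0.0218), Mmp12 (4.62, adjusted p = 0.000336), Gpnmb (3.47, adjusted p = 0.00398) and Cd36 (1.79, adjusted p = 0.000664) were called in both. Of the male-biased list 14 of 27 and of the complement list 24 of 30 were lower at week 5 than at week 2 (6.69% of all genes were lower), and of the endothelial list 18 of 19 were higher (11.9% of all).

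Other genes of the comparison were not called between weeks 5 and 2. Of the pericentral list 1 of 20 was lower there and 1, Nkd1 (1.68), was higher, with a median of -0.29, and Glul (-0.06, adjusted p = 0.931), Cyp1a2 (-1.11, adjusted p = 0.111) and Cyp2e1 (-0.52, adjusted p = 0.434) did not pass the test. Hamp (0.53, adjusted p = 0.242), Apoa4 (0.71, adjusted p = 0.289), Aldh1b1 (0.44, adjusted p = 0.331) and Mat1a (0.10, adjusted p = 0.764) did not either, and Cfd was at -0.42 (adjusted p = 0.705). Whether these differences between the comparisons exceed their error was not tested. The marker score rose in this comparison too, and with it as a term 0 genes were called by edgeR (863 at an unadjusted p under 0.05). Without week 2 replicate 2, 645 genes were called between weeks 5 and 2, and without week 5 replicate 2 or 3, 1073 and 1343.

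**Figure D5:**
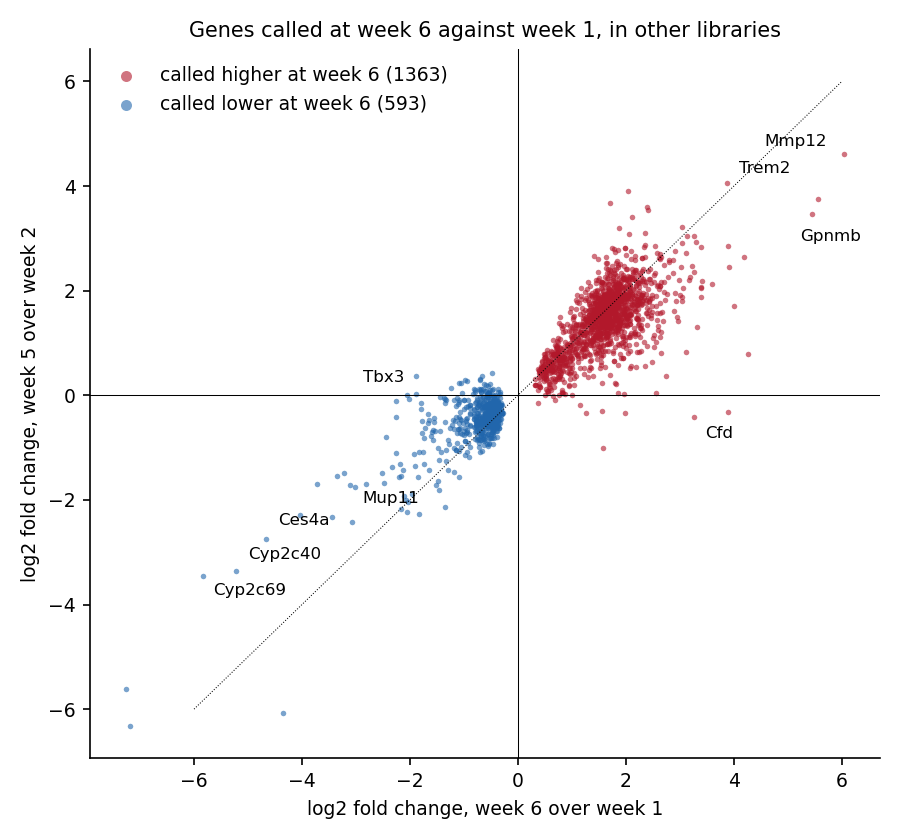
Log2 fold change of the 1956 genes called between weeks 6 and 1 (x axis) against their log2 fold change between weeks 5 and 2 (y axis), which share no library, with genes that rose and genes that fell in different colours. Of the genes that rose 99.3% and of those that fell 92.4% lie on the same side of 0 on both axes.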

How the data were processed

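The authors deposited 1 table of raw counts per gene symbol with a column per library; the values are whole numbers of at least 0. Reads were trimmed and aligned with cutadapt and STAR 2.7.1a to GRCm39, per the submitters' processing notes; what counted the reads, and on which annotation, the labels do not say (not given in the sources used here). Columns were matched to samples by diet week and replicate number. In R 4.3.3, edgeR 4.0.16 (filterByExpr, TMM factors, robust quasi-likelihood F-tests) fitted 1 model to the 7 groups of 25 libraries, with 18 residual degrees of freedom, from which week 6 minus week 1 and week 5 minus week 2 were taken. Of 37085 symbols 11869 were tested. Genes were called at a Benjamini-Hochberg adjusted p of 0.05 over all tested genes. Standard errors are the log2 fold change over the square root of F, and 2 is the prior count behind log2 levels. Library totals over the whole table were 5281143 to 10015751 counts. The median biological coefficient of variation was 0.179. Same-group libraries differed beyond sampling noise (chi-squared over degrees of freedom 5.42 to 32.2), so none was counted as a copy.

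Members, lists and the naming rule were chosen with earlier results of these data known. Lists share members, so that the same called gene can be counted in several of them. The rule names the 10 largest called rises and falls at a mean of 10 CPM or more in either week without overlap, the 5 largest among those with at least 100 CPM in both weeks, the 4 members with the smallest p per list and the 2 most abundant markers per marker list, and passes over Gm and Rik symbols. For genes named by the size of a rise or fall, lack of overlap was thus a condition and no separate support. Abcb11, Abcc3, Acta2, Aox3, Axin2, C3, C6, C8a, C8b, Capg, Ccl2, Ccn2, Ces2a, Clec4f, Clec4g, Ctrb1, Cyp2c37, Cyp2c50, Cyp2d9, Cyp7a1, Cyp8b1, Elovl3, Fabp5, Fasn, Fn1, Ghr, Glul, Gulo, Hspa1b, Igf1, Itgax, Lgr5, Mup21, Mup3, Nkd1, Plin2, Saa1, Saa2, Serpina1a, Smad7, Socs2, Sox4, Sqle, Stab2, Stat5b, Tbx3, Timd4, Try4, Ugt2b38, Ugt2b5, Vim and Vsig4, and the pancreatic genes, were named after their values were seen. On simulated counts of 11575 genes with 100 changed 2-fold and 100 changed 4-fold, this fit recovered 54% and 89% for week 6 against week 1, with 10 false calls. Alternatives were RLE or library-size scaling, no filter or 5 CPM in 3 libraries, DESeq2 1.42.0, limma 3.58.1 (voom), a replicate block, the marker score as a term, only both weeks in the model, each library left out and, chosen after the values were seen, both week 1 libraries with pancreatic transcripts left out. Promoters come from RefSeq (GRCm38.p6), matched by symbol. That build differs from the one of the counts, and no coordinate was carried between them.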

Additional observations from a re-analysis of the deposited data

Results flagged for a closer look

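Among 289 levels and list means tested in the 4 libraries of week 1, 8 had 1 library whose gap to the nearest of the others took more of the group's range than the Dixon limit for 4 samples. Chance flags about 1 in 20 groups, and 8 of 289 is a smaller share, so the flags are no more than chance would give. Replicate 1 stood apart for Cidec (0.835), for Hmox1, the haem-degrading stress enzyme (0.903), and for the mean of the cholangiocyte markers (0.867). Replicate 2 stood apart for the clock repressor Bhlhe41 (0.898) and for Cd4 (0.908). Replicate 3 stood apart for Ugt2b1 (0.906), the complement protease gene C1ra (0.887) and the tubulin gene Tuba1a (0.834). Of these, Cidec was at 1.12 CPM in replicate 1 and at 0.145 to 0.306 CPM in the other libraries of week 1, all below the 4.27 CPM of the lowest library of week 6.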

How the results depend on the processing

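From week 1 to week 6, 1956 genes were called (1363 higher, 593 lower), and 2211 (1417 and 794) from week 2 to week 5. RLE factors gave 1873 and 2068 calls, no filter 1704 and 1775, the filter of 5 CPM 1525 and 1695, DESeq2 2128 and 2343, and voom 2165 and 2431. Library size alone gave 184 and 149 lower genes, and shares of higher calls of 90.7% and 93.4% in place of 69.7% and 64.1%. With only both weeks in the model 325 genes were lower at week 6. Leaving out 1 library gave 1227 to 1993 calls, 882 to 1403 higher and 336 to 590 lower for week 6, and 645 to 2163, 460 to 1446 and 185 to 746 for week 5. Without both week 1 libraries with pancreatic transcripts 1145 genes were called, 816 higher and 329 lower, 994 of them among the 1956, and Try4 was at 1.82 (adjusted p = 0.864). With the marker score as a term 0 genes were called, 0 higher and 0 lower in either comparison, and 16 named genes changed sign: Ccl4 -0.12, Cxcl2 -0.06, Gbp2 -0.12, Ccnd1 0.00, Klf2 -0.02, Abcc4 -0.28, H2-DMa -0.09, C1qb -0.21, Csf1r -0.41, C1qa -0.47, Ptprc -0.03, Lyz2 -0.06, Ccl2 -0.40, Itgax -0.12, Timd4 -0.55 and Vim -0.18. C1qb, Csf1r, C1qa and Timd4 are in the Kupffer list, from which the score was partly made, so their changes are not separate from it. The cause of the other changes was not tested. Of 239 named genes, between 19 and 51 lost their call when 1 library was left out. Replicate numbers did not pair the libraries (correlations of same-numbered deviations -0.16, 0.12 and -0.11, and -0.01, -0.07 and 0.03), and with the replicate number as a block 1838 and 2159 genes were called.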

Other observations

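Pancreatic enzyme transcripts were found in 2 of the 4 libraries of week 1. In replicates 3 and 4 the counts of the chymotrypsinogen Ctrb1 were 401 and 227, of the trypsinogens Try4 172 and 73 and Prss2 236 and 160, of the pancreatic lipase Pnlip 184 and 93 and of the carboxypeptidase Cpa1 150 and 143. In the other libraries of weeks 1 and 6 each of these had at most 4 counts. They were also found in week 2 replicate 3 (503 counts of Ctrb1) and week 4 replicates 2 and 1 (268 and 28 counts). Ctrb1 (-7.25, adjusted p = 0.0441) and Try4 (-7.18, adjusted p = 0.0499) were called lower at week 6 by edgeR, although the libraries of the weeks overlapped, and both calls were lost without any single library except week 1 replicate 1 or 2 (adjusted p of 0.08 to 0.145 and 0.0832 to 0.146). Both were chosen after their values were seen.

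Some members of other lists were called as well. The heat shock gene Hspa1b fell from 11.7 to 2.48 CPM (-2.25, adjusted p = 0.0446). Osgin1, an oxidative stress target, went from 241 CPM at week 1 to 112 CPM at week 6, with 223 CPM on normal diet (-1.11, adjusted p = 0.0241). The acyl-CoA thioesterase Acot3 rose from 0.116 to 1.1 CPM (3.11, adjusted p = 0.02), with 1.04 CPM on normal diet. Cyp17a1, a steroid hydroxylase, was at 27.1 CPM on normal diet, 2.24 CPM at week 1 and 9.31 CPM at week 6 (2.08, adjusted p = 0.0373). The Hspa1b call was lost without any single library except week 1 replicate 3 (0.0515 to 0.175) and that of Cyp17a1 without any except week 1 replicate 1 (0.0514 to 0.135). The Osgin1 call was lost without week 6 replicate 1 (0.124) or 2 (0.0752) or week 1 replicate 2 (0.0702), and that of Acot3 without week 6 replicate 2 (0.0685) or week 1 replicate 2 (0.0634) or 3 (0.05).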
